A study of Sus scrofa with 30 samples.

Results

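Lactose, the main sugar and osmotic solute of milk, is built in the Golgi of mammary epithelial cells from blood glucose. Glucose enters through facilitative carriers and is phosphorylated by hexokinases. Part of it is turned over glucose 1-phosphate into UDP-glucose and then UDP-galactose, which is carried into the Golgi lumen. There B4GALT1, a galactosyltransferase, joins galactose to free glucose once the milk protein alpha-lactalbumin (encoded by LALBA) is bound to it.

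The 8 genes described here stand for these steps. SLC2A1 and SLC2A8 encode the glucose carriers GLUT1 and GLUT8, HK1 and HK2 encode hexokinases, PGM1 encodes phosphoglucomutase and UGP2 encodes UDP-glucose pyrophosphorylase. SLC35A2 encodes the Golgi UDP-galactose carrier, and B4GALT1 the galactosyltransferase. They were chosen by name from the reference annotation and are 8 of 26019 genes and assembled loci. Of their 20 annotated transcripts 15 were listed, and the values of a gene's transcripts were added up.

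The libraries came from mammary tissue of 30 multiparous half-sibling crossbred sows (Danish Landrace by Yorkshire), 1 sow each. Each stage had 6 sows. Mid-gestation (MG) was day 70 and late gestation (LG) day 110. Early lactation (EL) was sampled on postpartum day 2, peak lactation (PL) on postpartum day 10, and W2 stands for 2 days from weaning. No sow was treated, and the stages differ in the animals sampled as well as in time. The comparisons follow the gland from gestation through lactation into early involution. Another field of the sample records exchanges the names of MG and EL, and the sample titles were followed. LALBA lay between 6.60 and 94.1 in the samples titled MG and between 151 and 2501 in those titled EL.

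In every stage 3 of the 6 samples were near-identical and equalled the mean of the other 3. Their median pairwise difference was at most 1.85%, against 19.6% to 59.8% between the others, so only the others were counted (n = 3). Values are in TPM, a share of the sample's transcripts corrected for length, so that levels of different genes can be set side by side. The table holds TPM values and no read counts, so no counting error was derived from it, and errors are the spread between sows. Milk protein genes took 10.5% to 40.8% of all units in a sample, with the highest share in PL sample 2, and TPM leaves the other genes what remains. The median gene was 0.40 lower on the log2 scale in lactation (EL and PL) than in gestation (MG and LG), and 0.68 higher in W2 than in PL. Differences are therefore given on the log2(TPM + 0.5) scale both as measured and relative to that median gene. Folds of single genes are taken from these differences, and the added 0.5 understates the change for genes at low levels. With samples rescaled without the milk protein genes, the median gene still differed by -0.26 in lactation and by +0.44 in W2 against PL. The tissue is a mixture of cells, and fewer cells of a type cannot be told apart from less RNA per cell. Epithelial markers were present throughout: the 6 luminal genes KRT8, KRT18, KRT19, EPCAM, CDH1 and ELF5 summed to between 837 and 1992 TPM, and none was at 0.

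The levels fell into an upper pair and a lower group. B4GALT1 and UGP2 averaged 190 to 407 TPM by stage, and B4GALT1 ranked 315 in MG and 197 in PL among the listed genes. SLC2A1 and HK1 averaged 17.9 to 36.6 TPM, PGM1 and SLC35A2 less, and HK2 and SLC2A8 near 1 TPM. Across the 5 stages, 2 of the 8 genes passed limma's test at an adjusted p below 0.05, where 18.3% of all genes and loci did. These were PGM1 (adjusted p = 0.015) and HK1 (adjusted p = 0.029). HK2 (adjusted p = 0.062) and B4GALT1 (adjusted p = 0.086) did not pass. An exact permutation of the stage labels over all 1401400 partitions of the samples gave p = 0.00097 for PGM1, 0.0060 for HK1, 0.0072 for HK2 and 0.038 for B4GALT1, without adjustment. For the other 4 genes it gave 0.075 (SLC2A8), 0.61 (UGP2), 0.67 (SLC2A1) and 0.83 (SLC35A2).

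**Figure D1:**
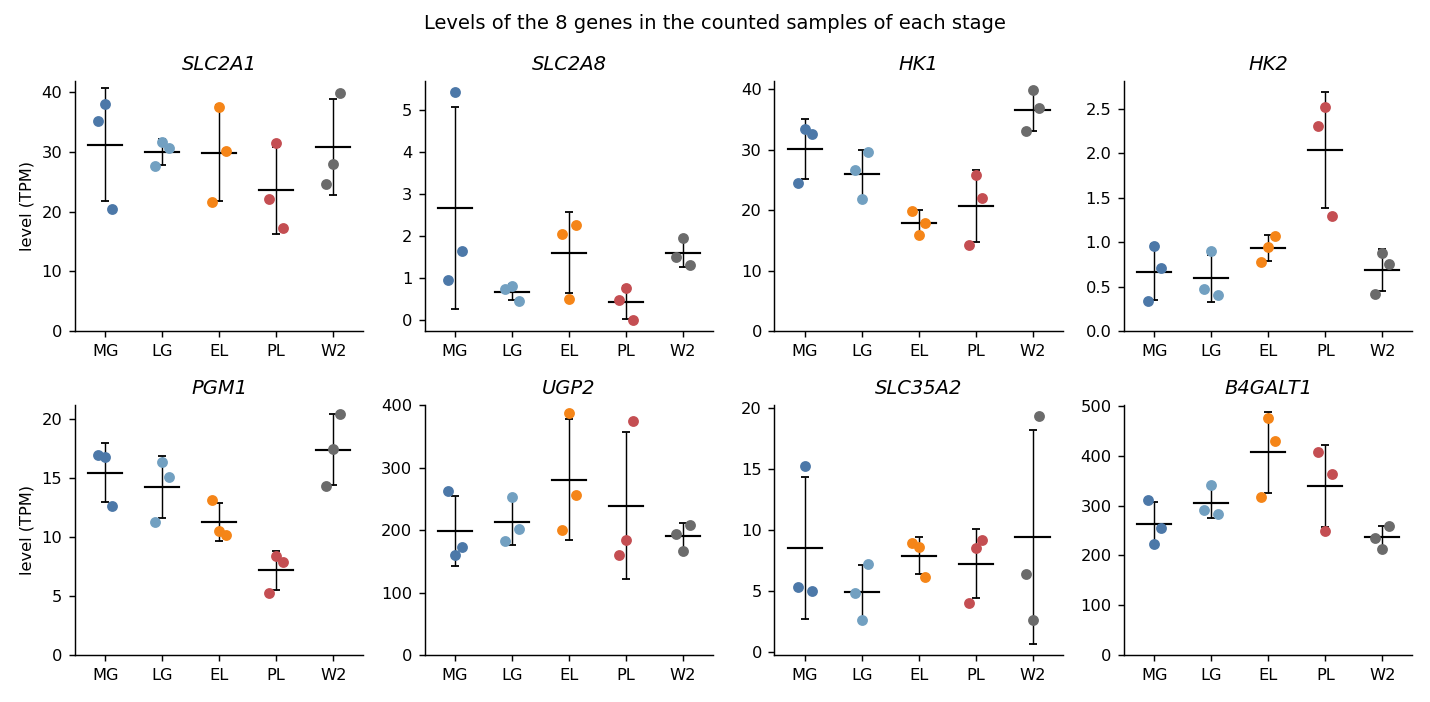
Level in TPM of each gene in the 3 counted samples of each stage, with 1 point per sow, the mean as a horizontal line and the SD as a bar. PGM1 was lowest and HK2 highest in PL, with no sample of either overlapping EL, while SLC2A1 and UGP2 overlapped between all stages.

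SLC2A1, the more abundant of both carriers, passed in no comparison of stages. In gestation it read 35.1, 38.1 and 20.4 TPM (MG) and 27.6, 31.8 and 30.7 (LG). In lactation it read 21.6, 37.6 and 30.1 (EL) and 22.1, 31.5 and 17.2 (PL), and after weaning 24.6, 28.0 and 39.9. The samples of every pair of neighbouring stages in the order of means overlapped. Lactation against gestation gave 0.860-fold with a 95% interval of 0.628 to 1.18 (difference -0.22, adjusted p = 0.47 in limma). Relative to the median gene the difference was +0.19.

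SLC2A8, a mostly intracellular carrier with 1 of its 3 annotated transcripts listed, was low and uneven. It read 0.944, 5.41 and 1.63 TPM in MG, 0.738, 0.795 and 0.446 in LG, 2.04, 0.488 and 2.25 in EL, and 1.49, 1.95 and 1.31 in W2. In PL it read 0.481 and 0.758 and was listed at 0 in sample 6. Every PL sample was below every MG sample (difference -1.63, SE 0.54, adjusted p = 0.044). That call was not stable and passed in 8 of 25 alternative fits. Without MG sample 3 the difference was -1.04 (adjusted p = 0.18), and without PL sample 6 it was -1.24 (adjusted p = 0.13).

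Both carriers belong to a larger set of glucose transporters, of which 9 others were measured. In lactation against gestation 4 of these 9 were lower and 0 higher in limma (0 higher also at an unadjusted p below 0.05), beside 19.3% lower and 1.57% higher among all genes. The median difference was -0.23 for the set and -0.40 for all genes. SLC5A1, the sodium-coupled glucose carrier SGLT1, was the largest of these. Its mean was 37.8 TPM for MG, 49.9 for LG and 38.3 for EL, then 7.71 for PL and 43.6 for W2. It fell from EL to PL by 2.35 (adjusted p = 0.0053) and rose again by 2.59 in W2 (adjusted p = 0.00058), and both differences passed under each of 3 rescalings. SLC2A3, SLC2A12 and SLC5A2 were also lower in lactation, by 0.54 to 0.81, at mean levels of at most 3.66 TPM in any stage. Under median ratio scaling 0 of the 9 passed as lower in lactation, and the median of the set was -0.11.

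Between gestation and lactation, and from PL to W2, the hexokinases moved in opposite directions. From EL to PL neither was called, and both differences were positive (HK1 +0.17, HK2 +0.80). HK1, the widely expressed form, read 24.5, 33.5 and 32.6 TPM in MG, 26.6, 21.8 and 29.6 in LG and 19.9, 15.8 and 18.0 in EL. It then read 14.2, 25.8 and 22.1 in PL, and 33.1, 40.0 and 36.9 in W2. Every EL sample was below every MG and LG sample, and every W2 sample above every PL sample.

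HK2, the form known for its response to insulin and for its high level in muscle and fat, was far lower. It read 0.336, 0.955 and 0.711 TPM in MG, 0.474, 0.901 and 0.405 in LG and 0.781, 0.944 and 1.07 in EL. It then read 2.31, 2.52 and 1.30 in PL, and 0.422, 0.883 and 0.759 in W2. All PL samples were above all samples of every other stage.

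In lactation against gestation HK2 was 1.70-fold higher with 0.5 added to each level (difference +0.77, SE 0.22, adjusted p = 0.031). Relative to the median gene it was +1.17. Without the added 0.5, its stage means were 0.667 and 0.594 TPM for gestation (MG, LG). For lactation they were 0.933 and 2.04 TPM (EL, PL), so the 1.70-fold understates the change in TPM. HK1 was 0.687-fold (difference -0.54, SE 0.16, adjusted p = 0.031), but only -0.14 relative to the median gene. An exact permutation test of 6 lactation against 6 gestation samples, two-sided, gave p = 0.013 for HK2 and 0.011 for HK1. Both lactation calls lay close to the threshold. Without any one of LG samples 1 and 4, EL samples 4 and 6 or MG sample 6, neither passed, nor did HK1 without MG sample 3 or HK2 without MG sample 1 (adjusted p 0.057 to 0.074 for HK1 and 0.050 to 0.070 for HK2). From PL to W2, HK1 rose by 0.85 (adjusted p = 0.012) and HK2 fell by 1.08 (adjusted p = 0.020). Relative to the median gene HK1 then differed by only +0.17, and HK2 by -1.76. In PL, HK2 was also higher than in MG (+1.12, adjusted p = 0.022) and LG (+1.21, adjusted p = 0.024). Leaving out PL sample 2 or PL sample 3 raised the adjusted p of each of these 3 HK2 differences to between 0.051 and 0.055.

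The ratio of HK2 to HK1 within a sample does not change with the scaling of that sample. It was 1.37%, 2.85% and 2.18% in MG, 1.78%, 4.13% and 1.37% in LG and 3.92%, 5.96% and 5.97% in EL. It reached 16.3%, 9.77% and 5.87% in PL and was 1.28%, 2.21% and 2.06% in W2. Only LG sample 3 among the gestation samples reached the lowest lactation value. The ratio was 3.39-fold higher in lactation than in gestation (exact permutation test, two-sided, p = 0.0043, adjusted p = 0.013 over 3 ratios). Ratios were taken from TPM without the added 0.5, so this fold is not the quotient of the HK2 and HK1 folds above. With each of the 12 samples left out in turn, the log2 difference stayed between 1.52 and 1.96 and p between 0.0043 and 0.0087. This comparison, like the other ratios, was added after the levels had been seen, so the p-values of the ratios are descriptive.

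**Figure D2:**
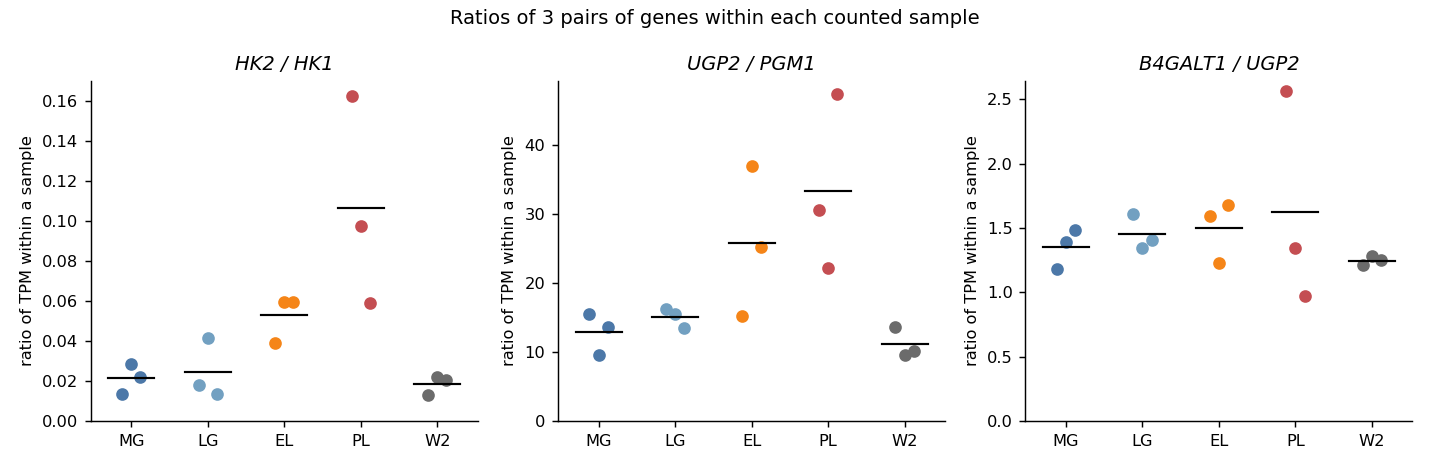
Ratio of TPM values within each counted sample for HK2 to HK1, UGP2 to PGM1 and B4GALT1 to UGP2, with the stage mean as a line. The first ratio peaked in PL at 16.3% in sample 2 and the second at 47.4 in sample 6, while the third was 1.07-fold in lactation against gestation.

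HK2 is abundant in skeletal muscle, and muscle markers were highest in PL. The only 2 of the muscle list that were listed, MYH1 and MYH2, which encode myosin heavy chains, summed to 3.10, 12.9 and 14.7 TPM in PL and to at most 0.960 elsewhere. In the same order of PL samples HK2 itself read 2.31, 2.52 and 1.30 TPM. Of 4 adipocyte markers 1 rose and 1 fell from EL to PL, beside 4.62% of all genes called in either direction. Their median was +1.04 and that of all genes -0.22. LEP, the hormone leptin, rose to 1.56, 15.8 and 14.6 TPM in PL from at most 0.608 in EL (adjusted p = 0.011). FABP4, a fatty acid carrier of fat cells, fell by 1.16 (adjusted p = 0.0077; 0.085 under median ratio scaling). CIDEC (+1.44, adjusted p = 0.20) and PLIN4 (+0.63, adjusted p = 0.62) did not pass. The sum of the 4, nearly all of it FABP4, was 254 to 390 TPM in PL and 444 to 732 in the other stages. The part of muscle or fat cells in the HK2 difference was not tested.

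PGM1, which interconverts glucose 6-phosphate and glucose 1-phosphate, had the smallest p across the stages. It read 16.9, 16.8 and 12.6 TPM in MG, 11.2, 16.3 and 15.1 in LG and 13.1, 10.5 and 10.1 in EL. It then read 5.21, 8.34 and 7.89 in PL, and 14.3, 17.4 and 20.4 in W2. All PL samples were below all samples of every other stage.

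Compared with gestation, PGM1 was 0.618-fold in lactation (difference -0.70, SE 0.16, adjusted p = 0.013; exact permutation p = 0.0065). From PL to W2 it rose 2.36-fold, with a 95% interval of 1.66 to 3.34 (difference +1.24, SE 0.23, adjusted p = 0.0022). Relative to the median gene these differences were -0.29 and +0.56. Both calls were lost where samples were rescaled to the same median or distribution, under which the W2 difference was +0.53 (adjusted p = 0.058 and 0.065). PL against MG gave -1.07 (adjusted p = 0.0065) and PL against LG -0.95 (adjusted p = 0.018). Without LG sample 3 or LG sample 4 the latter had an adjusted p of 0.063 or 0.068. NM_001246318.1 carried 84.8% to 100% of PGM1 in every sample.

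UGP2, which makes UDP-glucose from glucose 1-phosphate, was listed at 263, 161 and 172 TPM in MG and 182, 254 and 202 in LG. It reached 200, 388 and 256 in EL and 159, 185 and 374 in PL, and was 194, 167 and 208 in W2. All neighbouring stages overlapped. EL sample 4 and PL sample 6 stood above every gestation and W2 sample. Lactation against gestation gave 1.21-fold with a 95% interval of 0.861 to 1.71 (difference +0.28, adjusted p = 0.40), and +0.68 relative to the median gene.

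UGP2 was also set against PGM1, the step before it. The ratio of UGP2 to PGM1 was 15.5, 9.58 and 13.7 in MG, 16.2, 15.5 and 13.4 in LG and 15.2, 37.0 and 25.2 in EL. It was 30.6, 22.1 and 47.4 in PL and 13.6, 9.59 and 10.2 in W2. Only EL sample 3 lay within the range of gestation. The ratio was 2.01-fold higher in lactation (exact permutation p = 0.0087, adjusted p = 0.013), and its log2 difference stayed between 0.85 and 1.18 with each sample left out. Taken singly, PGM1 differed by -0.70 and UGP2 by +0.28 as measured, and by -0.29 and +0.68 relative to the median gene. Which of both genes gives more of the ratio thus depends on the scale.

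The shares of the UGP2 transcripts varied between samples. NM_213980.1 made up 43.9%, 35.6% and 40.1% of UGP2 in MG, against 88.9%, 86.0% and 86.4% in W2. XM_021085835.1 made up nearly all of the rest. Its level was 144, 103 and 103 TPM in MG and 19.6, 22.3 and 22.3 in W2, so that these stages did not overlap. The 3 stages between were mixed: the share of NM_213980.1 was 48.5%, 94.2% and 88.3% in LG, 93.3%, 82.8% and 41.3% in EL, and 51.9%, 72.3% and 81.5% in PL. XM_021085835.1 was lower in W2 than in MG by 2.40 (SE 0.75, unadjusted p = 0.0069), which did not pass over all transcripts (adjusted p = 0.86). An exact permutation of the ratio of both transcripts over the 5 stages gave p = 0.11. Transcripts of a gene share exons, and the assignment of reads between them is an estimate of the quantification.

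**Figure D3:**
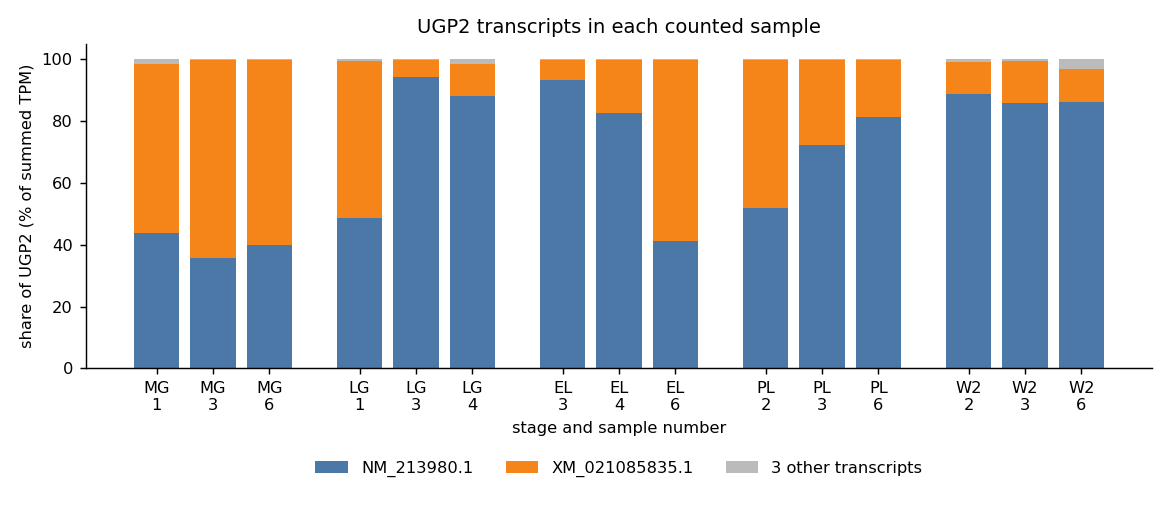
Share of each UGP2 transcript in the summed UGP2 level, in percent, for every counted sample, named by stage and sample number. NM_213980.1 held 35.6% to 43.9% in the 3 MG samples and 86.0% to 88.9% in the 3 W2 samples, while the LG, EL and PL samples ranged from 41.3% to 94.2%.

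SLC35A2 varied widely between sows. In gestation it read 5.37, 15.3 and 5.02 TPM (MG) and 4.89, 2.68 and 7.22 (LG). In lactation it read 8.98, 8.64 and 6.17 (EL) and 4.01, 8.59 and 9.24 (PL), and after weaning 6.39, 2.68 and 19.4. MG sample 3 and W2 sample 6 stood far above the others of their stage. In MG sample 3 only 31.9% of the level came from XM_013986120.2, the transcript that carried all of SLC35A2 in most samples, and this transcript alone read 5.37, 4.88 and 5.02 in MG. In W2 sample 6 the same transcript carried the whole 19.4. Lactation against gestation gave 1.23-fold with a 95% interval of 0.636 to 2.37 (adjusted p = 0.65), an interval wide enough to hold a doubling.

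Of 10 other nucleotide sugar carriers of the SLC35 family, 1 was lower in lactation and 0 higher (1 higher at an unadjusted p below 0.05), beside 19.3% lower and 1.57% higher among all genes. The lower one was SLC35C2 (difference -0.74, adjusted p = 0.027), which missed the threshold under each rescaling. The median of these carriers turned from -0.28 to +0.11 under median ratio scaling. Of 16 other enzymes of nucleotide sugar metabolism, 4 were lower and 0 higher, also 0 at an unadjusted p below 0.05, which for the lower ones is near the 19.3% of all genes. UXS1, which makes UDP-xylose, averaged 120 TPM in MG, 59.8 in EL and 22.5 in PL (difference -1.61, adjusted p = 0.0013) and rose in W2 by 2.56 (adjusted p = 0.00020). It was the only one of the 16 that was still called lower under each rescaling. UGDH, which oxidises UDP-glucose, was lower in lactation by 0.40 (adjusted p = 0.034), equal to the shift of the median gene.

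B4GALT1 was already high in gestation. It read 312, 224 and 255 TPM in MG, 292, 342 and 284 in LG and 317, 475 and 430 in EL. It read 408, 249 and 364 in PL and 236, 213 and 260 in W2. Every EL sample was above every MG and W2 sample, while PL sample 3 lay among the gestation and W2 samples. In lactation B4GALT1 was 1.30-fold the level in gestation, with a 95% interval of 1.04 to 1.61 (difference +0.37, SE 0.15), and did not pass after adjustment (adjusted p = 0.085; exact permutation p = 0.048, unadjusted). Relative to the median gene it was +0.78.

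After weaning B4GALT1 was 0.708-fold the PL level (difference -0.50, SE 0.21, adjusted p = 0.080), which is -1.18 relative to the median gene. The fall passed where the scaling took milk proteins or the median gene into account. It was then -0.83 (adjusted p = 0.033) after rescaling without milk protein genes, -1.10 (adjusted p = 0.026) after quantile normalization and -1.24 (adjusted p = 0.017) after median ratio scaling. Without PL sample 3 it also passed on the deposited scale (-0.71, adjusted p = 0.016), as did lactation against gestation (+0.48, adjusted p = 0.022).

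LALBA, the partner that turns B4GALT1 into lactose synthase, covered a far wider range. It read 94.1, 6.60 and 66.7 TPM in MG, 217, 272 and 14.6 in LG, and 151, 2501 and 1988 in EL. It reached 30875, 6565 and 2041 in PL and dropped to 29.5, 2.31 and 13.7 in W2. EL sample 3, low in LALBA, also had the lowest B4GALT1, HK2 and UGP2 to PGM1 ratio of its stage, and its LALBA level lay within the range of LG. The PL samples did not share this order. There sample 6 was lowest in LALBA and HK2 but highest in the UGP2 to PGM1 ratio (47.4), and sample 3 was lowest in B4GALT1. LALBA was 5.47 higher in lactation on the log2 scale (adjusted p = 0.0060) and 9.45 lower in W2 than in PL (adjusted p = 0.00095). The mean of LALBA exceeded that of B4GALT1 in EL and PL and was below it in MG, LG and W2.

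The ratio of B4GALT1 to UGP2 was 1.07-fold in lactation against gestation (exact permutation p = 0.69), with 0.971 to 2.56 in PL and 1.21 to 1.28 in W2. Of the B4GALT family 6 other members were measured. In lactation 1 of 6 was lower (19.3% of all genes) and 0 higher (0 higher at an unadjusted p below 0.05), with a median of -0.34 that was -0.04 under median ratio scaling. From PL to W2, 3 of 6 rose, where 30.4% of all genes did: B4GALT2 by 3.28 (adjusted p = 0.0076), B4GALT6 by 1.81 (adjusted p = 0.00019) and B4GALT3 by 0.63 (adjusted p = 0.029). B4GALT2 and B4GALT6 also rose under each rescaling, while B4GALT3 was then between -0.10 and +0.31 and not called.

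Counted over the 8 genes, lactation against gestation called 1 higher (HK2) and 2 lower (HK1 and PGM1), beside 1.57% higher and 19.3% lower among all genes. W2 against PL called 2 higher (HK1 and PGM1) and 1 lower (HK2), beside 30.4% and 2.48%. PL against MG called 1 higher (HK2) and 2 lower (PGM1 and SLC2A8), beside 2.23% and 23%, and PL against LG 1 higher (HK2) and 1 lower (PGM1), beside 1.62% and 13.1%. The shares of lower calls in lactation and of higher calls in W2 were thus large in the whole table.

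PL against EL called 0 of 8 in limma (2 at an unadjusted p below 0.05: HK2 at +0.80 and PGM1 at -0.64), beside 4.62% of all genes (19% unadjusted). These 2 genes were also the ones whose EL and PL samples did not overlap, which was so for 3.05% of all genes upward and 15.8% downward. The other 6 pairs of stages also called 0 of the 8 in limma. W2 against EL did so beside 0.553% of all genes, and 3 of the 8 (25.1% of all genes) had an unadjusted p below 0.05. Among these 3 were HK1 (+1.01, adjusted p = 0.059) and B4GALT1 (-0.77, adjusted p = 0.084). EL against MG (0.0269% called) had 2 of the 8 at an unadjusted p below 0.05, beside 15.9% of all genes. LG against MG (0.0115% called) had 1 beside 4.44%, EL against LG (0.0154%) 1 beside 6.18%, and W2 against LG (0.0346%) 1 beside 7.56%. W2 against MG (0.0115%) had 0 beside 3.09%.

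The genes differed in how far these calls depended on scaling. HK2 kept its direction and its call in lactation and in W2 under all 4 scalings. HK1 and PGM1 kept their direction, but under quantile normalization and median ratio scaling neither passed in either comparison, and HK1 also lost its lactation call after rescaling without milk protein genes (-0.35, adjusted p = 0.066). B4GALT1 kept its direction and gained calls. SLC2A1 changed sign under quantile normalization and median ratio scaling in both comparisons, and SLC35A2 changed sign in W2 against PL under all 3 rescalings.

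**Figure D4:**
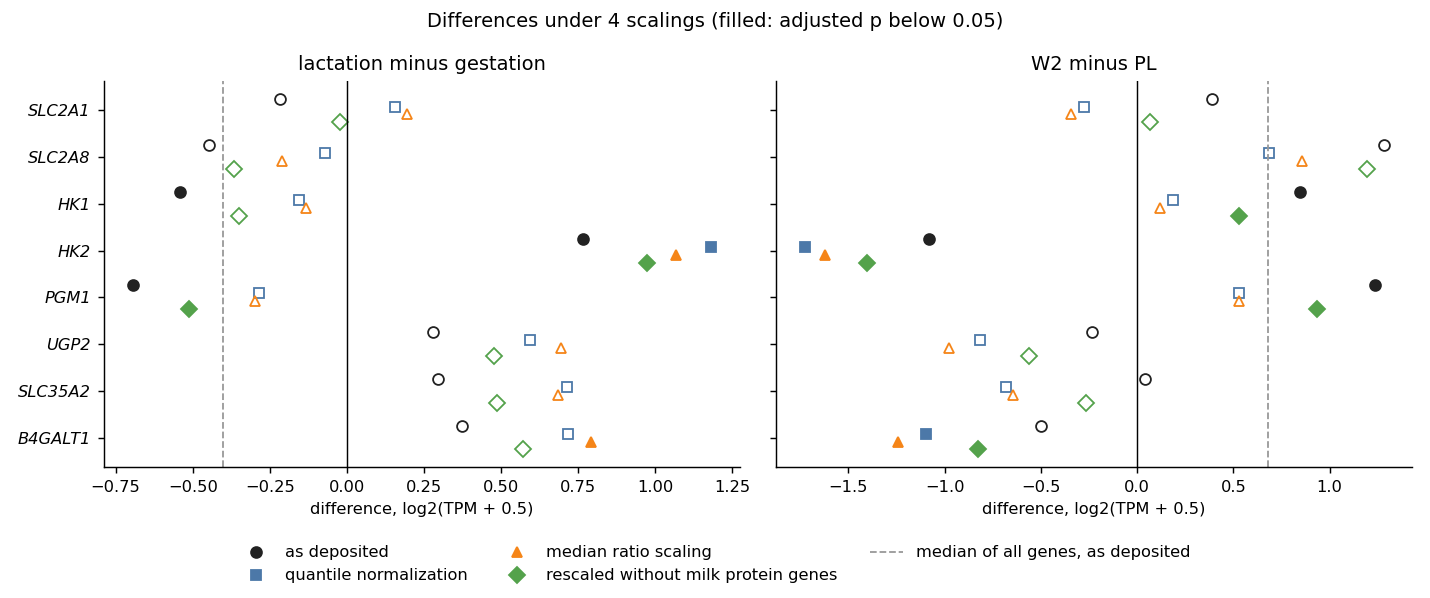
Difference on the log2(TPM + 0.5) scale for each gene in lactation minus gestation (left) and W2 minus PL (right) under 4 scalings, filled where the adjusted p was below 0.05, with the median of all genes on the deposited scale dashed. HK2 is filled under every scaling in both panels. HK1 and PGM1 lose their fill under quantile normalization and median ratio scaling, and HK1 also on the left without milk protein genes. B4GALT1 gains one in W2 minus PL under each rescaling.

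Some genes that use the same hexose phosphates for energy and reducing power were lower in lactation on the deposited scale, few of them after rescaling. In glycolysis 7 of 17 were lower and 0 higher (1 higher at an unadjusted p below 0.05), beside 19.3% and 1.57% of all genes, with a median of -0.44, while under median ratio scaling 0 were lower and 1 higher, with a median of -0.03. The higher one was PGAM2. TPI1 averaged 71.2 TPM in MG and 16.8 in PL (difference -1.34, adjusted p = 0.023), GAPDH 213 and 98.2 (-0.67, adjusted p = 0.0059) and PKM 112 and 54.1 (-0.72, adjusted p = 0.015). From PL to W2, 11 of 17 rose and 1 fell, beside 30.4% and 2.48% of all genes. The one that fell was PGAM2, the muscle form of phosphoglycerate mutase (-1.46, adjusted p = 0.014). Its level was 4.01 to 10.9 TPM in EL and 4.53 to 6.83 in PL.

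In the pentose phosphate pathway 5 of 7 were lower in lactation and 0 higher, also 0 at an unadjusted p below 0.05, and 6 of 7 rose in W2. Among all genes 19.3% were lower in lactation and 30.4% rose in W2. Under median ratio scaling 0 of 7 were lower in lactation, 1 rose in W2, and the median turned from -0.32 to +0.09. RPIA, which isomerises ribose 5-phosphate, showed the largest difference (-0.69, adjusted p = 0.011). Against the same 19.3%, of 7 genes of glycogen metabolism 2 were lower, PYGB (-0.66, adjusted p = 0.0047) and GYG1 (-0.63, adjusted p = 0.027). Likewise 1 of 9 regulators of glucose uptake was lower, HIF1A (-0.48, adjusted p = 0.024), and 0 higher (1 higher at an unadjusted p below 0.05). Under median ratio scaling 0 of these 9 were lower and 1 was higher. None of PYGB, GYG1 and HIF1A passed under median ratio scaling. The medians of the pathway sets lay between -0.55 and -0.12, on both sides of the median gene at -0.40. The median of the 8 genes was +0.03.

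**Figure D5:**
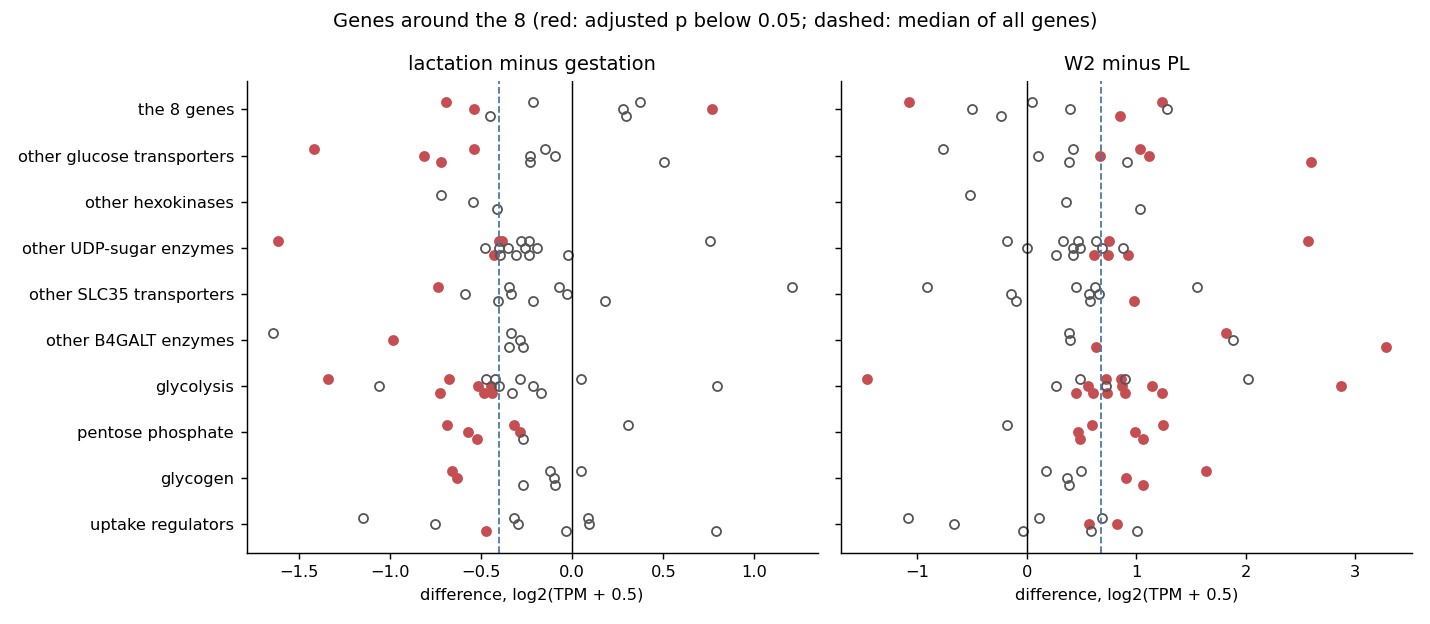
Difference on the log2(TPM + 0.5) scale for each gene of 10 sets in lactation minus gestation (left) and W2 minus PL (right), red where the adjusted p was below 0.05, with the median of all genes dashed. In the left panel HK2 is the only red point above 0, and in the right panel HK2 and PGAM2 are the only red points below 0.

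Markers of other cell types moved between the same stages. Of 6 fibroblast genes 3 were lower in lactation (19.3% of all genes were), and their summed level was 472 to 1301 TPM in EL and PL against 1145 to 2632 in the other stages. Of 4 leukocyte genes 2 were lower (1 of each list under median ratio scaling), with sums of 7.73 to 20.5 against 20.2 to 47.9. The luminal epithelial sum lay between 1315 and 1766 in EL and PL except PL sample 2, where it was 837, against 1343 to 1992 in the other stages. No luminal gene passed in lactation against gestation (1 lower at an unadjusted p below 0.05, and 1 called higher under median ratio scaling). The part of these cells in the lower HK1 and PGM1 was not tested.

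Across the 15 counted samples, HK1 ran most closely against B4GALT1 (Pearson's r = -0.92, Spearman's rho = -0.91). PGM1 went with HK1 (r = 0.71) and against HK2 (r = -0.71), and UGP2 went with B4GALT1 (r = 0.67). These points share the stages and each sample's milk protein share, so the values are descriptive. Among 5458 genes with a mean of at least 10 TPM, those most like HK2 were INSIG1 (r = 0.91) and MSMO1 (r = 0.88), both of sterol metabolism. INSIG1 averaged 17.3 TPM in EL, 72.6 in PL and 12.3 in W2. Those most like HK1 were ACTN4 (r = 0.97) and ZFP36L1 (r = 0.96), and those most like PGM1 were RAB21 (r = 0.98) and CCZ1 (r = 0.97). B4GALT1 ran with ANKRD22 (r = 0.92) and RHOU (r = 0.90), and UGP2 with MGST1 (r = 0.79) and ARFGAP3 (r = 0.77). For SLC2A1 these were ACY1 and BUD23 (both r = 0.83), for SLC2A8 SMIM10L1 (r = 0.86) and SH3BGRL3 (r = 0.85), and for SLC35A2 LAMA4 (r = 0.75) and SEC13 (r = 0.72).

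In the Sscrofa11.1 assembly chromosome 3 holds HK2 at 68155656 to 68231187 and UGP2 at 77975450 to 78032471, and chromosome 6 holds PGM1 at 148851183 to 148918891 and SLC2A1 at 168535398 to 168561170. B4GALT1 lies on chromosome 10 (33317295 to 33381285), SLC2A8 on chromosome 1 (267925184 to 267934096), HK1 on chromosome 14 (72383328 to 72460927) and SLC35A2 on chromosome X (42981801 to 42992091).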

How the data were processed

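Mammary RNA libraries (TruSeq RNA v2, Illumina HiSeq) of 30 sows were analysed, grouped by sample title. Per the labels and the study's methods, the authors trimmed the reads with Trimmomatic, aligned them to Sscrofa11.1 with HISAT2 and quantified transcripts with StringTie. The authors named the deposited values FPKM, but a sample's values sum to between 997480 and 1002643, so they were treated as TPM. Whether RUVs correction is included is not stated in the sources used here. Of 61773 transcripts, 32396 matched a RefSeq accession of Sscrofa11.1, and 29047 were assembled by the authors. Transcripts were summed per gene. Samples whose pairwise median difference was below 5% (over transcripts of at least 10 TPM) were not counted.

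limma 3.58.1 (R 4.3.3) was fitted to log2(TPM + 0.5) over the 5 stages with trended variance and Benjamini-Hochberg adjustment over all 26019 genes and loci. The procedure was tested on simulated data. Exact permutation tests used scipy 1.17.1 and were two-sided; the smallest p for 6 against 6 is 0.0022, and 3 against 3 cannot go below 0.10, so pairs of stages were not permuted. The genes, lists and naming rule (all 8 genes; at most 4 genes per list that passed; the 2 genes most like each) were chosen with earlier results of these data known. SLC2A2, SLC2A5, SLC2A9, HKDC1 and 15 other list genes were not matched. Alternatives were pseudocounts 0.1 and 1, a filter, 3 rescalings, all 6 samples, near-identical samples counted once, the replicate number as a block, compared stages alone, the highest transcript and each sample left out. Rescaling the lists was added after seeing the data. The replicate numbers do not pair the samples. Sequences were not used here.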

Additional observations from a re-analysis of the deposited data

How the results depend on the processing

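Of 24 gene differences (8 genes in lactation against gestation, PL against EL and W2 against PL), 6 passed on the deposited scale, and none of these 6 changed direction in any alternative. Genes called across stages (2), higher in lactation (1) and lower in lactation (2) changed as follows. Quantile normalization gave 1 across stages and 0 lower. Median ratio scaling gave 2 higher and 0 lower, and its 2 calls across stages were B4GALT1 and HK2 in place of HK1 and PGM1. Rescaling without milk protein genes called HK2 across stages beside HK1 and PGM1, and gave 1 lower. All 6 samples gave 7 across stages and 3 higher, and near-identical samples counted once gave 5 and 2. These counts rest on copies of the mean. The highest transcript in place of the sum gave 0, 0 and 0, with adjustment over more features. Leaving out 1 sample gave 1 to 3 across stages, 0 to 2 higher and 1 to 2 lower. Across stages, B4GALT1 was added without EL sample 3 or PL sample 3, and HK2 without PL sample 6. The lactation call of HK1 was lost in 6 of the 15 fits without 1 sample, that of HK2 in 6 and that of PGM1 in 0.

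With the replicate number as a block, 1 gene was called across stages, 0 higher and 0 lower. The correlation of samples with the same number ran from -0.14 to 0.17 over 19 pairs, so the number was not taken as a pairing.

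Differences that changed sign, none of them called, were these. In lactation SLC2A1 was 0.16 under quantile normalization and 0.19 under median ratio scaling. From EL to PL, median ratio scaling gave 0.065 for B4GALT1, 0.054 for UGP2 and 0.13 for SLC35A2, and SLC35A2 was 0.054 under quantile normalization and 0.19 under the block. In W2 against PL, SLC2A1 was -0.28 under quantile normalization and -0.34 under median ratio scaling, SLC35A2 was -0.68, -0.64 and, without milk protein genes, -0.27, and the highest transcript gave 0.13 for UGP2 and -0.14 for SLC35A2. Without 1 sample, from EL to PL HK1 ranged from -0.010 to 0.41 and SLC35A2 from -0.38 to 0.18. In W2 against PL UGP2 then ranged from -0.47 to 0.14 and SLC35A2 from -0.65 to 0.67. The cause of these changes was not tested beyond the median shift given above. Read counts per gene were not used here, so the precision of HK2 and SLC2A8 near 1 TPM is given only by the spread of 3 sows.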
